A study of Mus musculus with 2 samples.

Results

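The Evi2 locus of the mouse is a cluster of small genes that lies inside an intron of Nf1 on chromosome 11. It was followed here through the gene rows named Evi2, Evi2a, Evi2b and Nf1, taken by symbol, which are 4 of the 55401 gene rows of the table. All 4 had counts in both libraries and a mean of at least 1 FPKM (fragments per kilobase of exon, scaled to depth). The locus was chosen by the log2 ratio of Evi2 between the same libraries, so that difference is described here and not tested. RNA was read from myeloid-derived suppressor cells (MDSCs), a mixed population of immature neutrophil-like and monocyte-like cells that restrain T cells in tumours. The mice were C57BL/6 animals of 8 weeks that bore MC38 tumours (a mouse colon carcinoma line), and the bead-isolated cells had spent 24 h in culture with MC38 cells. One library came from LysM-cre, Mettl3fl/fl mice, in which Cre is driven from the lysozyme 2 gene of myeloid cells, and 1 from Mettl3fl/fl mice without Cre. Both groups thus carried the floxed Mettl3 alleles. For the LysM-cre sample, a label says MC39 where all others say MC38. Whether animals were pooled was not given in the sources used here.

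Evi2 stands for ecotropic viral integration site 2, a place where retroviral insertion recurs in myeloid leukaemias of BXH-2 mice. Evi2a and Evi2b encode membrane proteins of blood cells. Evi2b (CD361 in the human) is a target of C/EBP alpha, the transcription factor of granulocyte development, and is needed for the maturation of granulocytes. Nf1, the host gene, encodes neurofibromin, which switches Ras off by speeding its hydrolysis of GTP. Loss of Nf1 is known to cause overgrowth of myeloid cells in mice and humans.

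The 3 Evi2 rows share exons. All coordinates are on mm10, minus strand for the Evi2 rows. The Evi2 row spans chr11:79513385-79530589, Evi2a spans chr11:79526560-79530609 at its upstream end and Evi2b spans chr11:79515056-79523762 within it. In GENCODE M21 the protein-coding Evi2 transcript (ENSMUST00000170422, called the readthrough transcript below) has 4 exons and 3944 bases. Its exons 1 and 2 lie within exons of Evi2a, its exon 3 is the first exon of Evi2b without the first bases, and its exon 4 holds the whole second exon of Evi2b. The Evi2 row thus joins parts of both neighbours. Of the 1858 exon bases of Evi2b, 1831 (98.5%) also belong to Evi2, and the 27 that do not are at chr11:79523736-79523762. Evi2a shares 442 of its 2297 exon bases with Evi2 (19.2%) and none with Evi2b. The 1671 exon bases that belong to Evi2 alone form a single block at the 3' end, chr11:79513385-79515055. No exon base of any of the 3 rows lies in an exon of Nf1.

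The sequences below show what sets the rows apart. The junction of exon 2 and exon 3 of the readthrough transcript (exon 3 in capitals, between positions 79527582 and 79523735) was found in transcripts of 1 gene, Evi2. The 27 bases are those found in the first exon of Evi2b and not in Evi2.
Evi2 readthrough, exon 2 to exon 3: gccgtgggtcacaagAAGCCGTCTCAGTGC
Evi2b, bases outside Evi2: tactgataaacttcctctgctgcacag

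The 3 rows are not annotated for 3 different long proteins. The readthrough transcript and the Evi2b transcript carry the identical frame of 444 codons, at chr11:79515416-79516747 without the stop codon. It is preceded by 581 bases in the readthrough transcript and by 166 bases in the Evi2b transcript, and followed by 2028 and 357 bases. Evi2a has a different frame of 223 codons. The other Evi2 transcript, ENSMUST00000093983, equals the readthrough transcript without its first 30 bases, yet it is annotated for nonsense-mediated decay with a short frame of 77 codons. That short frame begins at the start codon of Evi2a, shares 201 bases with the Evi2a frame and stops just after the exon 2 to exon 3 junction. The same short frame is present in the readthrough transcript, where it ends 106 bases before the Evi2b frame. The first 90 bases of both long frames (start codon in capitals) and the last 45 bases of the short one (stop codon in capitals) read as follows.
Evi2 readthrough and Evi2b: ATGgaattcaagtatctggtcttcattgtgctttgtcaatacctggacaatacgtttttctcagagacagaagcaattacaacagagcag
Evi2a: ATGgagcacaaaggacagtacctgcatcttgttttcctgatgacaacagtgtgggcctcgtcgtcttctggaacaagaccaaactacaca
Evi2 decay form, end of short frame: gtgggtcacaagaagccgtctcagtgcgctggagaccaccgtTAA

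**Figure D1:**
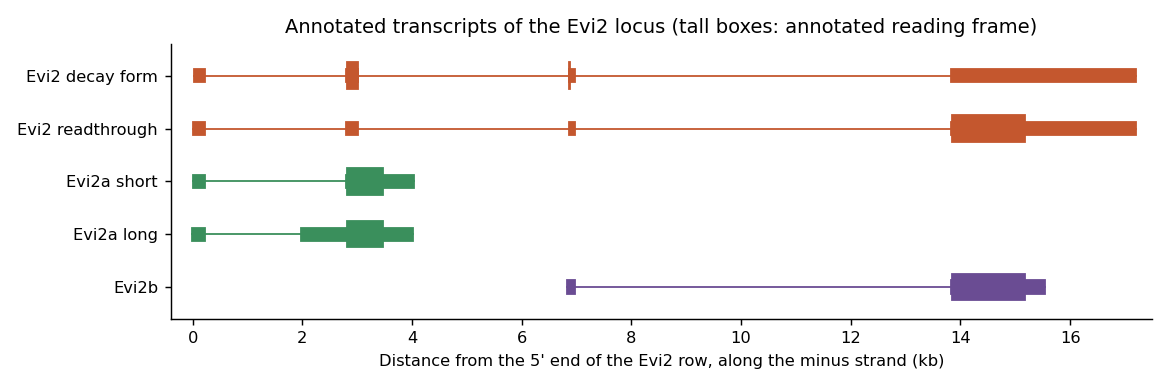
Annotated transcripts of the Evi2 rows in GENCODE M21, by distance in kb from the 5' end of the Evi2 row along the minus strand. The decay form is the Evi2 transcript annotated for nonsense-mediated decay. Boxes are exons, tall boxes the annotated reading frames, and lines introns. Both Evi2 transcripts start with the first exon of Evi2a and end beyond the last exon of Evi2b.

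The table held 59393864 counts for the LysM-cre-labelled library and 59506878 for the floxed control library. There was 1 library per genotype, so no difference below has a replicate check or a p-value, and the exact 95% intervals of ratios cover counting error only. Mettl3, the targeted gene and the catalytic subunit of the m6A writer, stood at 3.92 FPKM (1333 counts) in the LysM-cre-labelled library and at 4.16 FPKM (1413 counts) in the floxed control, a ratio of counts per library total (CPM) of 0.945 (0.876 to 1.02). The whole-gene value was thus not lower beyond counting error, and the exons that Cre removes were not measured apart. Most genes were close between the libraries: of 12526 genes averaging 1 FPKM or more, 93.5% lay within 1.5-fold of each other in FPKM + 1. All 10 neutrophil markers and all 10 monocyte and macrophage markers averaged 1 FPKM or more, and so did all 10 markers of B and plasma cells and 8 of 10 of T and NK cells. Of the 6 epithelial markers that tumour cells could carry, 2 were at 1 FPKM or more and Krt19 was at 0 in both libraries.

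Evi2 was the member that differed. The Evi2 row stood at 11.7 FPKM on 3071 counts in the LysM-cre-labelled library and at 87.8 FPKM on 23141 counts in the floxed control library. The CPM ratio was 0.133 (0.128 to 0.138), a level 7.52-fold lower, and the log2 ratio of FPKM + 1 was −2.81. By level, Evi2 ranked 3497th of 10250 protein-coding genes kept in the LysM-cre-labelled library and 412th in the floxed control library. Its log2 ratio was the 4th lowest of these genes, and its loss in depth-scaled counts was the 7th largest. Evi2 was the only member past 2-fold. Over all genes kept, 1.18% were at least 2-fold lower and 1.31% at least 2-fold higher, and nothing is read from this comparison because Evi2 was chosen for its ratio.

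**Figure D2:**
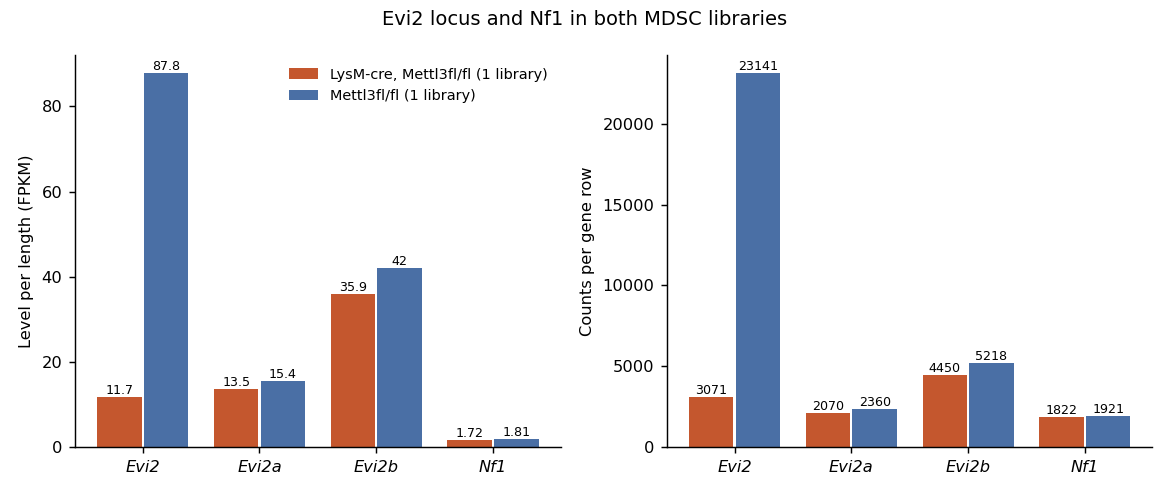
Level in FPKM (left) and counts (right) of the 4 gene rows in 1 library of LysM-cre, Mettl3fl/fl cells and 1 library of Mettl3fl/fl cells. Bars are single libraries and have no error bars. The Evi2 bars differ most, at 11.7 FPKM (LysM-cre, Mettl3fl/fl) and 87.8 FPKM (Mettl3fl/fl), while the pairs of the other rows are close.

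Evi2b and Evi2a were slightly lower in the LysM-cre-labelled library. Evi2b, which carries the same reading frame as the readthrough transcript from its own start, stood at 35.9 FPKM on 4450 counts in the LysM-cre-labelled library and at 42.0 FPKM on 5218 counts in the floxed control library (CPM ratio 0.854, 0.821 to 0.889). Evi2a stood at 13.5 FPKM on 2070 counts in the LysM-cre-labelled library and at 15.4 FPKM on 2360 counts in the floxed control library (CPM ratio 0.879, 0.828 to 0.933). Their log2 ratios of FPKM + 1 were −0.22 and −0.17. Both intervals lay below 1, for counting error only. They do not cover the unknown division of shared reads between the rows, and only 1.45% of the exon bases of Evi2b are its own. Whether that division had a part in these small differences was not tested. By log2 ratio, Evi2b ranked 886th and Evi2a 1280th from the lowest of 10250 protein-coding genes kept. In bulk RNA, fewer cells of a type and less RNA per cell cannot be told apart. Beside the marker counts that follow, 49.7% of all 12526 genes kept were lower in the LysM-cre-labelled library, and 2.49% were past 2-fold either way. Neutrophil markers were lower in 9 of 10 cases in the LysM-cre-labelled library, with log2 ratios of −0.49 to 0.01, a median of −0.26 and summed levels of 10500 FPKM (LysM-cre-labelled) and 12100 FPKM (control). Markers of B and plasma cells were lower in 9 of 10 cases, with log2 ratios of −1.07 to 1.12, a median of −0.09 and summed levels of 15400 FPKM in the LysM-cre-labelled library and 17400 FPKM in the floxed control. The ends of that range were the only B and plasma cell markers past 2-fold, Ighm, the heavy chain of IgM, and Jchain, the joining chain of secreted antibody. Ighm stood at 1360 FPKM in the LysM-cre-labelled library and 2850 FPKM in the control, and Jchain at 555 FPKM in the LysM-cre-labelled library and 255 FPKM in the control. Monocyte and macrophage markers were higher in 7 of 10 cases, with log2 ratios of −0.17 to 3.13, a median of 0.11 and summed levels of 2110 FPKM (LysM-cre-labelled) and 1940 FPKM (control). The 1 marker of that list past 2-fold was Cx3cr1, the fractalkine receptor, at 61.6 FPKM in the LysM-cre-labelled library and 6.16 FPKM in the control. All 8 eosinophil markers were higher, 3 of them past 2-fold, with log2 ratios of 0.01 to 1.34, a median of 0.49 and summed levels of 895 FPKM (LysM-cre-labelled) and 672 FPKM (control). Markers of T and NK cells were higher in 4 of the 8 kept, with log2 ratios of −0.14 to 0.22 and summed levels of 344 FPKM (LysM-cre-labelled) and 331 FPKM (control). Erythroid and platelet markers were higher in 6 of 7, with log2 ratios of −0.35 to 0.59, a median of 0.41 and summed levels of 1380 FPKM (LysM-cre-labelled) and 986 FPKM (control). Jchain and Cx3cr1 were named after their values were seen. The part of these cell types in the Evi2 values was not tested.

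The order of the rows differed between the libraries. In the LysM-cre-labelled library, Evi2b was the highest per length, and Evi2 had 0.325 times the FPKM of Evi2b and 0.865 times that of Evi2a. In the floxed control library, Evi2 was the highest, with 2.09 times the FPKM of Evi2b and 5.72 times that of Evi2a. The ratio of Evi2a to Evi2b was nearly level, at 0.376 in the LysM-cre-labelled library and 0.366 in the floxed control. This order and these ratios depend on how reads over shared exons were divided between the rows, which is not known. Of the exon bases of Evi2b, 98.5% also belong to Evi2.

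The counts of the 3 rows were also added, since a sum does not depend on how reads over shared exons were divided between the rows, as long as each read was counted in 1 row. The sum was 9591 counts in the LysM-cre-labelled library and 30719 counts in the floxed control library, a CPM ratio of 0.313 (0.306 to 0.320) and a level 3.20-fold lower. Evi2 made up 32.0% of the summed counts in the LysM-cre-labelled library (exact 95% interval 31.1% to 33.0%) and 75.3% in the floxed control library (74.8% to 75.8%). Evi2b made up 46.4% in the LysM-cre-labelled library and 17.0% in the control, and Evi2a 21.6% in the LysM-cre-labelled library and 7.68% in the control. Counts grow with the length of a row. Per exon base of the row, a scale chosen after seeing the data, the shares in the LysM-cre-labelled library were 19.1% for Evi2, 22.1% for Evi2a and 58.8% for Evi2b, so that Evi2a was above Evi2. On that scale the shares in the floxed control library were 60.5% for Evi2, 10.6% for Evi2a and 28.9% for Evi2b. Of the summed difference in depth-scaled counts, 95.0% lay in the Evi2 row, 3.60% in Evi2b and 1.36% in Evi2a. Evi2 and Evi2b, the rows that share the frame of 444 codons, held together 7521 counts in the LysM-cre-labelled library and 28359 in the floxed control (CPM ratio 0.266, 0.259 to 0.273). Evi2a and Evi2b without Evi2 held 6520 counts in the LysM-cre-labelled library and 7578 in the control (CPM ratio 0.862, 0.834 to 0.891). The assignment of reads over shared exons was not given in the sources used here. In the LysM-cre-labelled library the Evi2 row held fewer counts than the Evi2b row, although Evi2 contains all but 27 exon bases of Evi2b.

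Rows that share exons differed between the libraries more often than other rows, and the Evi2 row was set beside them. Of 99 protein-coding rows kept with 50% or more of their exon bases in another row on the same strand, Evi2 among them, 6.06% were at least 2-fold lower and 7.07% at least 2-fold higher in the LysM-cre-labelled library. Of 9476 protein-coding rows with no shared exon base, 0.401% were lower and 0.475% higher. This share includes Evi2 itself and is a description. On the CPM scale, 7 rows with such shared exons and counts in both libraries were at least 2-fold lower, and 3 stayed so after the counts of their overlapping rows were added. They were Evi2, Pagr1a and Septin5, the last 2 named after their values were seen. With overlapping rows added, Pagr1a lay at −1.55 (−5.18 alone) and Septin5 at −1.22 (−1.64 alone). Of 9 such rows that were at least 2-fold higher, 0 stayed so. The median log2 CPM ratio of the 7 lower rows moved to −0.13 with overlapping rows added, against −2.73 for the rows alone. For Evi2 it moved to −1.68, against −2.91.

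**Figure D3:**
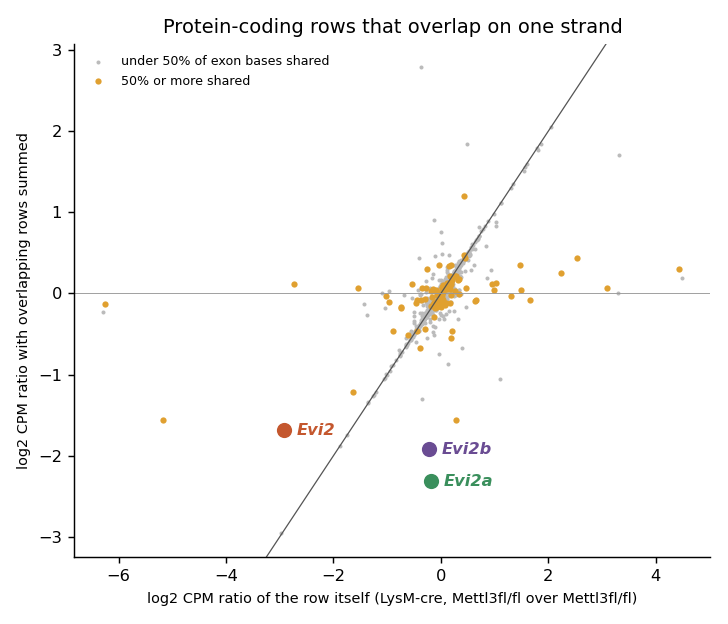
log2 CPM ratio of each protein-coding row that overlaps another on the same strand (x axis) against the ratio with the counts of the overlapping rows added (y axis), LysM-cre, Mettl3fl/fl over Mettl3fl/fl. The line marks equal values. Many rows with shared exons fall near 0 on the y axis, while Evi2 lies at −1.68. Evi2a and Evi2b, near 0 on the x axis, lie at −2.31 and −1.91 because the sum contains Evi2.

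**Figure D4:**
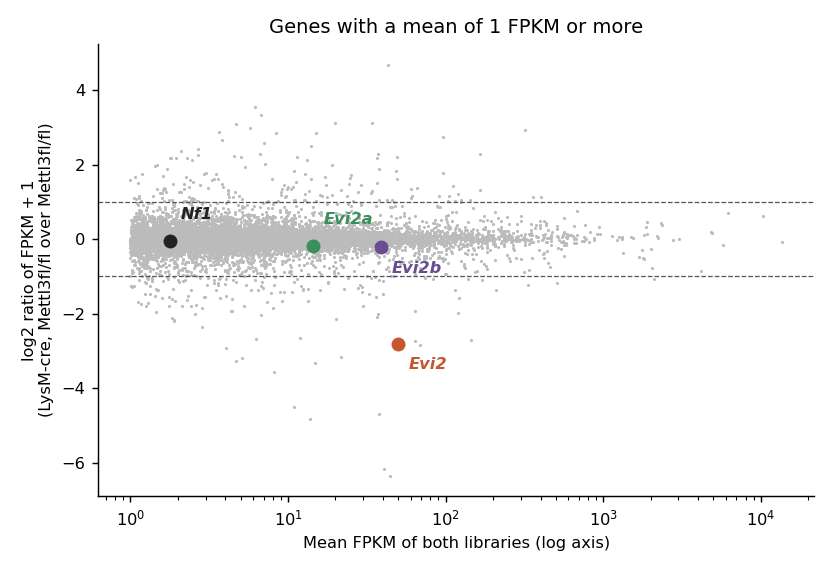
log2 ratio of FPKM + 1 (LysM-cre, Mettl3fl/fl over Mettl3fl/fl) against mean FPKM on a log axis for 12526 genes, with the 4 members in colour and dashed lines at 2-fold. Evi2 lies at −2.81, and Evi2a, Evi2b and Nf1 lie within the band of most genes.

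The promoters are printed because Evi2 and Evi2b start at different places. Each is the stretch of 250 bases before the RefSeq start (build GRCm38.p6), and 3 of the 4 members had an entry. The Evi2 window, chr11:79530610-79530859, ends next to the outermost 5' base of Evi2a. Between it and the first base of the Evi2 row lie 20 exon bases of Evi2a alone. The window thus precedes Evi2a as well, and matches in it are not particular to Evi2. The Evi2b window, chr11:79523763-79524012, lies in an intron of Evi2. Capitals mark the core of PU.1 sites (GAGGAA on either strand), PU.1 being a transcription factor of all myeloid cells.
Evi2 promoter, minus strand: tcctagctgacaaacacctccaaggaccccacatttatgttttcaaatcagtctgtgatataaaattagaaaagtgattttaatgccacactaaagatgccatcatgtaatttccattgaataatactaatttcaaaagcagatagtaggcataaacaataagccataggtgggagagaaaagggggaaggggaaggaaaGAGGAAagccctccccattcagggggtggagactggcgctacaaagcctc
Evi2b promoter, minus strand: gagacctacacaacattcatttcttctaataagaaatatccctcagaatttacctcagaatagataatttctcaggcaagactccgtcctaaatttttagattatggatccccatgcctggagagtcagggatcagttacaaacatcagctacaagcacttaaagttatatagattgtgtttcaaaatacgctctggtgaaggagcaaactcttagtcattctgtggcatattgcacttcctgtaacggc

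The Evi2 window held 1 match to GAGGAA, beginning 50 bases before the RefSeq start, and the Evi2b and Nf1 windows held 0. Bases after the RefSeq start were not searched. The 27 bases of Evi2b printed above, which follow directly on its window, hold TTCCTC, the same core on the other strand. The contrast between Evi2 and Evi2b thus depends on where the window ends. Of 32851 promoter windows of the same length, 23.3% held a match. A C/EBP form searched as TTGCNNAA on both strands had 0 matches in the 3 windows, against 9.56% of all windows with a match, and other forms were not searched. TATAAA was found 1 time in the Evi2 window, 192 bases before the start, and in 12.4% of all windows. The windows of Evi2 and Evi2b were poor in G and C, at 41.6% and 38.8%, and the Nf1 window, chr11:79339642-79339891, was rich at 74.0%, against a median of 52.4% over all windows. The Nf1 row begins at chr11:79339693, before the RefSeq start, so part of the Nf1 window lies within that row.

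Because Mettl3 writes m6A on messenger RNA, often within the letters GGACT, these were counted on the sense strand of the spliced transcripts. The readthrough transcript held 1 copy in 3944 bases (0.254 per kb), after the reading frame and outside the block of bases that belongs to Evi2 alone. The Evi2b transcript held 1 copy in 1858 bases (0.538 per kb), the longer Evi2a transcript held 2 copies in 2289 bases (0.874 per kb), the shorter main Evi2a transcript held 1 copy in 1463 bases (0.684 per kb) and the longest Nf1 transcript held 11 copies in 11917 bases (0.923 per kb). Over the longest protein-coding transcripts of 10243 genes kept, the median was 1.05 per kb, the middle 50% ran between 0.634 and 1.52 per kb, and 91.9% held at least 1 copy. The densities in the readthrough transcript and in the Evi2b transcript were both below the middle 50%. These are matches of letters, and methylation was not measured.

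Nf1, the host gene, stood close in level between the libraries. It spans chr11:79339693-79581612 on the plus strand, and all 3 Evi2 rows lie in an intron of 59719 bases (chr11:79475884-79535602), intron 36 of 57 in the longest Nf1 transcript. Nf1 stood at 1.72 FPKM on 1822 counts in the LysM-cre-labelled library and at 1.81 FPKM on 1921 counts in the floxed control library. The CPM ratio was 0.950 (0.891 to 1.01), so no difference beyond counting error was detectable at this depth. The log2 ratio of FPKM + 1 was −0.05, against a median of 0.00 over all genes kept. Its level was low among protein-coding genes, ranking 9324th of 10250 in the LysM-cre-labelled library and 9192nd in the floxed control.

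Genes around Nf1 were close between the libraries, and the other rows inside it had few or no counts. Including the Evi2 rows, 7 rows lie within the Nf1 coordinates, all on the minus strand, and 5 had counts. Omg, which encodes a myelin glycoprotein of oligodendrocytes and lies in the same intron, had 62 counts in the LysM-cre-labelled library and 68 in the floxed control (0.412 FPKM LysM-cre-labelled, 0.451 FPKM control). The antisense row AU040972 had 4 counts in the LysM-cre-labelled library and 12 in the control, a CPM ratio of 0.334 whose interval of 0.0785 to 1.10 spans 1. Within 500 kb on either side, 8 other genes averaged at least 1 FPKM. Their log2 ratios lay between −0.14 and 0.17 with a median of 0.02, and 4 were higher and 4 lower in the LysM-cre-labelled library.

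The nearest of these genes on each side differed little. Wsb1, which encodes a substrate receptor of a ubiquitin ligase, stood at 27.3 FPKM in the LysM-cre-labelled library and at 28.3 FPKM in the floxed control. Rab11fip4, an effector of the endosomal GTPase Rab11, stood at 9.18 FPKM (LysM-cre-labelled) and 10.2 FPKM (control). Further out, Lgals9 (galectin 9) stood at 59.9 FPKM (LysM-cre-labelled) and 64.4 FPKM (control), the Polycomb gene Suz12 at 12.3 FPKM (LysM-cre-labelled) and 13.3 FPKM (control) and the cytokine receptor-like gene Crlf3 at 32.1 FPKM (LysM-cre-labelled) and 30.2 FPKM (control). Utp6, a factor of ribosome assembly, stood at 7.27 FPKM (LysM-cre-labelled) and 6.70 FPKM (control), Ksr1 at 5.38 FPKM (LysM-cre-labelled) and 4.66 FPKM (control) and the LYR motif gene Lyrm9 at 1.44 FPKM (LysM-cre-labelled) and 1.21 FPKM (control). None of the 8 was past 1.5-fold. The lower value of Evi2 was therefore not shared by these 8 genes.

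The pathway that Nf1 acts in was also near level. Of 63 genes in 5 lists of the Ras pathway, 52 averaged at least 1 FPKM. Of these, 28 were higher and 24 lower in the LysM-cre-labelled library, with a median log2 ratio of 0.01. The number past 2-fold was 0, against 2.49% of all genes kept, noncoding rows included. Among protein-coding genes kept, the share was 0.901% without same-strand overlap and 1.82% with it. A count of 0 among 52 genes is near these shares, and nothing is read from it. All 10 Ras family GTPases listed were kept (6 higher, 4 lower, median 0.03), with Nras at 14.6 FPKM in the LysM-cre-labelled library and 15.9 FPKM in the floxed control. The related Rras (52.9 FPKM LysM-cre-labelled, 49.4 FPKM control) and Rras2 (8.29 FPKM LysM-cre-labelled, 8.96 FPKM control) were as close. Of the GTPase-activating proteins and partners of Nf1, 10 of 14 were kept (6 higher, 4 lower, median 0.03). Lztr1, an adaptor for the removal of Ras proteins, stood at 7.10 FPKM (LysM-cre-labelled) and 5.88 FPKM (control), the activating proteins Rasal3 at 24.3 FPKM (LysM-cre-labelled) and 22.1 FPKM (control) and Dab2ip at 3.04 FPKM (LysM-cre-labelled) and 2.71 FPKM (control), and Spred2, of the family that brings neurofibromin to the membrane, at 4.14 and 3.89 FPKM.

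Single genes upstream and downstream of Ras differed more. Of the exchange factors and their adaptors, 11 of 13 were kept (5 higher, 6 lower, median −0.01). Grb2, the adaptor that brings Sos to receptors, had the lowest ratio of all 52 genes, at 50.0 FPKM in the LysM-cre-labelled library and 82.1 FPKM in the floxed control (CPM ratio 0.608, 0.593 to 0.624). The exchange factor gene Rasgrp3 stood at 1.68 FPKM (LysM-cre-labelled) and 2.40 FPKM (control), and the adaptor genes Gab1 at 1.37 FPKM (LysM-cre-labelled) and 0.908 FPKM (control) and Shc1 at 16.4 FPKM (LysM-cre-labelled) and 17.6 FPKM (control). All 11 genes of the RAF-MEK-ERK cascade were kept (5 higher, 6 lower, median −0.01), with ERK1 (Mapk3) at 67.8 FPKM (LysM-cre-labelled) and 73.7 FPKM (control), its substrate kinases Rps6ka1 at 55.6 FPKM (LysM-cre-labelled) and 51.3 FPKM (control) and Rps6ka3 at 11.1 FPKM (LysM-cre-labelled) and 13.2 FPKM (control), and the scaffold gene Ksr1 as given above. Of 15 output and feedback genes of ERK, 10 were kept (6 higher, 4 lower, median 0.02), and Fosl1 was at 0 in both libraries. Ier3, an early response gene, stood at 17.9 FPKM in the LysM-cre-labelled library and 11.1 FPKM in the floxed control (CPM ratio 1.60, 1.47 to 1.75), and the transcription factor gene Etv5 at 7.75 FPKM (LysM-cre-labelled) and 4.81 FPKM (control) (CPM ratio 1.61). The inhibitor genes Spry2 (2.63 FPKM LysM-cre-labelled, 3.22 FPKM control) and Dusp5 (37.9 FPKM LysM-cre-labelled, 43.4 FPKM control) were on the lower side. The members furthest from level in this list, Ier3 and Etv5, were thus higher, with log2 ratios of 0.64 and 0.59. Spry2 and Dusp5, at −0.22 and −0.19, lay nearer to level.

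**Figure D5:**
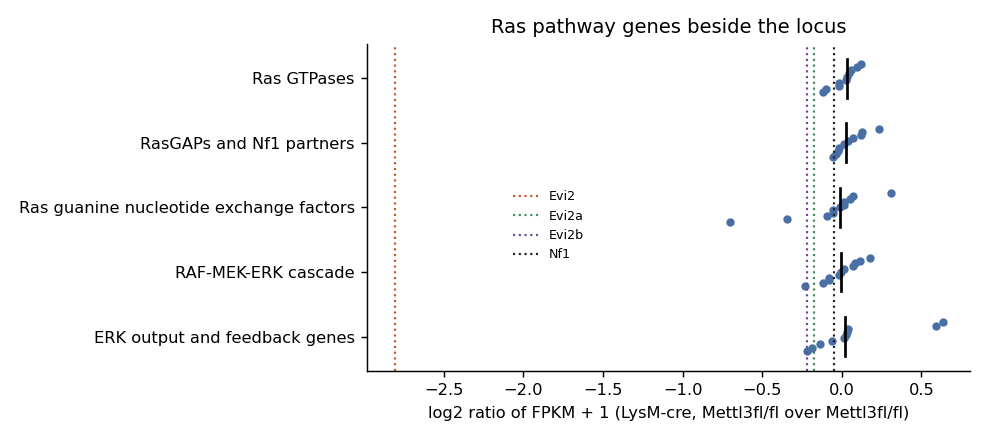
log2 ratio of FPKM + 1 (LysM-cre, Mettl3fl/fl over Mettl3fl/fl) of the Ras pathway genes kept, 1 dot per gene, with the median of each list as a black bar and the 4 members as dotted lines. The list medians lie between −0.01 and 0.03, and no gene reaches the −2.81 of Evi2.

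The genes whose pair of levels was nearest to that of a member were found by distance on the log2(FPKM + 1) scale over the 2 libraries. For Evi2 they were Atp6v0c, of the proton pump that acidifies lysosomes (17.9 FPKM in the LysM-cre-labelled library and 54.5 FPKM in the floxed control), the phosphatase gene Ctdsp2 (12.7 FPKM LysM-cre-labelled, 47.0 FPKM control) and Ly6a, which encodes Sca-1 (20.8 FPKM LysM-cre-labelled, 58.9 FPKM control). Even the nearest lay 0.890 from Evi2. For Nf1 they were Prdm15 (1.73 FPKM LysM-cre-labelled, 1.82 FPKM control), Mtrr (1.73 FPKM LysM-cre-labelled, 1.80 FPKM control) and Rsrc1 (1.74 FPKM LysM-cre-labelled, 1.80 FPKM control), the nearest lying 0.00526 away. With 2 libraries, such likeness rests on a single difference and a level.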

How the data were processed

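Poly(A) RNA of 2 MDSC libraries was sequenced with a protocol that removes the dUTP-marked second strand, per the labels' protocols. The submitters' processing notes name build mm10, StringTie 1.3.4d, HISAT2 2.0.4, cutadapt 1.9, DESeq2 and edgeR, whose roles were not given in the sources used here. Per the file headers, the deposited table has whole-number counts, not normalized, and FPKM values, both made by the authors, for each gene row. The authors' FPKM used the joined exon length of a row: in 98.5% of 9592 rows with over 500 counts in both libraries it followed from the counts and the GENCODE M21 exons within 1%. An FPKM of 0.0001 stood for 0. Values of 4 libraries outside the labels (8 columns) were left aside. The members and lists were chosen with earlier results of these data known.

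Samples were grouped by genotype, 1 library each, so no test was run. Genes averaging at least 1 FPKM were kept. Log2 ratios are of FPKM + 1, a scale that understates differences of low genes, and 2-fold is a fixed rule of size. CPM ratios carry exact (Clopper-Pearson) 95% intervals. Reads are not independent molecules, so these are too narrow for anything but counting. Strand handling and assignment of shared reads are unknown, so the split among Evi2, Evi2a and Evi2b is uncertain. Named genes are the members, Mettl3, rows within Nf1 and genes within 500 kb, up to 4 genes of each Ras list with the largest absolute ratio, and the 3 nearest pairs of levels. One list gene that the rule names is not reported here. GENCODE M21 holds 55141 of the identifiers, 94.2% of them at the same start and end. The ratios and intervals were tested on simulated data with counting error alone, so that check does not cover variation between animals or libraries. Alternatives were other pseudocounts, minimums, thresholds, scalings and sums. Python 3.11.15, pandas 2.3.3, scipy 1.17.1, R 4.3.3, edgeR 4.0.16 and DESeq2 1.42.0 were used.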

Additional observations from a re-analysis of the deposited data

How the results depend on the processing

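Direction was the same for every member under every alternative, and each difference rests on 1 library per genotype. The log2 ratio of Evi2 was −2.90 with a pseudocount of 0.1 FPKM, −2.48 with 5 FPKM, −2.89 in TPM, and −2.91 in CPM, with TMM and with median-ratio size factors. With same-strand overlapping rows summed it was −1.68 for Evi2, −2.31 for Evi2a and −1.91 for Evi2b, since each sum contains Evi2. The summed CPM ratio was 0.862 for Evi2a and Evi2b alone, and, chosen after seeing the data, 0.266 for Evi2 and Evi2b and 0.202 for Evi2 and Evi2a. Per exon base of the row, also chosen afterwards, the shares were 19.1% for Evi2, 22.1% for Evi2a and 58.8% for Evi2b in the LysM-cre-labelled library, against 60.5% for Evi2, 10.6% for Evi2a and 28.9% for Evi2b in the floxed control. Genes at least 2-fold lower and higher numbered 252 and 251 with a pseudocount of 0.1 FPKM, 54 and 62 with 5 FPKM, and 73 and 90 at a mean of 5 FPKM or more. In TPM they numbered 223 and 210. At 1.5-fold they numbered 411 and 400, and at 3-fold 52 and 59. Of rows that overlap on a strand, 3.93% were past 2-fold, against 9.53% where 50% or more of the row overlapped and 2.62% at a mean of 5 FPKM or more. The cause of these shifts was not tested. The medians (or means) of the Ras lists lay between −0.07 and 0.07 under every alternative run, and the neighbours of Nf1 were lower in 39.3% of cases in a 1 Mb window, against 50.0% in the 500 kb window. No paired analysis was possible because each genotype has 1 library, and for the same reason none could be left out.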
